A study of Mus musculus with 14 samples.

Results

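Mammary tumours of Brg1+/- mice with high and with low RNA for Comp, the gene of cartilage oligomeric matrix protein, were compared across all other genes. The tumours were chosen by their measured log2 ratio of Comp on two-colour arrays, with a ratio above 3 for the high side and below -2 for the low side. The high side held 3 tumours, T172, T284 and T646, and the low side held 8, T135, T160, T176, T2023, T2134, T372, T55 and T920. These were 11 of the 12 tumours in the series. T221, with a Comp ratio of 0.52, fell between the limits and was left out. All tumours carried the same genotype, 1 lost copy of Brg1 (Smarca4), which encodes the motor subunit of the SWI/SNF chromatin remodeller. The labels mark every tumour with the word MIXED without saying what it refers to, and give no treatment or age, and no normal mammary gland or wild-type tumour was compared. On every array the tumour was labelled with Cy5 and a shared mouse reference with Cy3, so each value is a log2 ratio of tumour over reference, where 1 unit is a 2-fold step. T172 and T284 had 2 arrays each, the second marked biorep, which were averaged, and each of the other 10 tumours had a single array. The labels do not say whether tumours came from separate animals, so the p-values measure only the spread between these tumours.

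COMP is a secreted protein of the thrombospondin family. It is made mainly in cartilage, tendon and ligament, where it binds fibrillar collagens, type IX collagen and matrilins and helps to order the collagen fibrils. In mammary tissue Comp is not a lineage marker, and its RNA in a tumour may come from tumour cells or from stroma. In bulk RNA such as this, fewer cells of a type and less RNA per cell cannot be told apart.

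The Comp ratios were 4.33 in T172, 3.63 in T284 and 4.13 in T646. On the low side they ran from -3.34 in T2023 to -2.16 in T920. The members nearest the limits were therefore T284 inside the high limit and T920 inside the low limit, with T221 alone outside both. The 2 arrays of T172 gave 4.53 and 4.12 and those of T284 gave 3.77 and 3.50. These values chose the sides and were not tested, and Comp is left out of everything that follows.

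The 2 cartilage matrix genes that differed between the sides, and Tmem37, the gene with the smallest p, are shown by the 250 bases before their start sites. The sequences are from RefSeq, assembly GRCm38.p6, and run 5′ to 3′ on the gene's strand. Col9a2 lies on the plus strand at chr4:121039316-121039565, Chad on the plus strand at chr11:94564797-94565046, and Tmem37 on the minus strand at chr1:120073781-120074030. Capitals mark a TATA box.
Col9a2: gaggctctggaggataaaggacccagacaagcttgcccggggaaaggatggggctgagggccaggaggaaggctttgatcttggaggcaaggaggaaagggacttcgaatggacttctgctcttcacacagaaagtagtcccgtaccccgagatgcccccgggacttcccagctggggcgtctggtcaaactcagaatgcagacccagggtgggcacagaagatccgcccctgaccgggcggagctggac
Chad: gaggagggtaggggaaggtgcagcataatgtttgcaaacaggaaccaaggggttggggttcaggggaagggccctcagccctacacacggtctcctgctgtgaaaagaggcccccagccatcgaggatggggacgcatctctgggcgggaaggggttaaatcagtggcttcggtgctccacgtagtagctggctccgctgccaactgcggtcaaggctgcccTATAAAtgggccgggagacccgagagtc
Tmem37: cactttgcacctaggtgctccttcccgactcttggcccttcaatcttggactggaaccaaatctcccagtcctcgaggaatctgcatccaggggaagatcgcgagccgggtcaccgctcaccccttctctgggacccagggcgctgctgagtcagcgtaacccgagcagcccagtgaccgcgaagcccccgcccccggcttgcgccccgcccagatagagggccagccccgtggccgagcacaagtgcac
On both strands, 2 motifs were searched, the SOX core ACAATG and the TATA box TATAAA. Only Chad of these 3 held one, a TATA box starting 28 bases before the start site. The SOX core was present in 10.7% of 32851 promoter windows of this length, in 8.16% of 13432 windows of tested genes, in 4.81% of 104 windows of genes called higher and in 5.88% of 17 windows of genes called lower. The TATA box was present in 12.4%, 10.6%, 4.81% and 17.6% of the same sets.

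Between the sides, 148 of 16878 genes passed limma's moderated test at a Benjamini-Hochberg adjusted p under 0.05, which is 0.877% of the genes tested. Of these, 128 (0.758%) were higher in the Comp-high tumours and 20 (0.118%) were lower. The genes called higher included Meltf, Tmem37, Tspan8, Hs3st1, Col9a2 and Chad, and those called lower included Rerg, Pawr and Plekhs1. The median difference was 1.78 for genes called higher and -1.21 for genes called lower, against -0.02 for all genes. Of the genes called higher, 117 differed at least 2-fold and 46 at least 4-fold. Of the genes called lower, 17 differed at least 2-fold and 2 at least 4-fold. All 3 Comp-high tumours lay above all 8 Comp-low tumours for 123 of the 128 genes called higher, where 386 of all genes (2.29%) did so. They lay below all 8 for each of the 20 genes called lower, where 314 of all genes (1.86%) did so. The genes were called from these same tumours, so the lack of overlap is no further support for the calls. At an unadjusted p under 0.05, 1169 genes were higher and 933 lower.

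**Figure D1:**
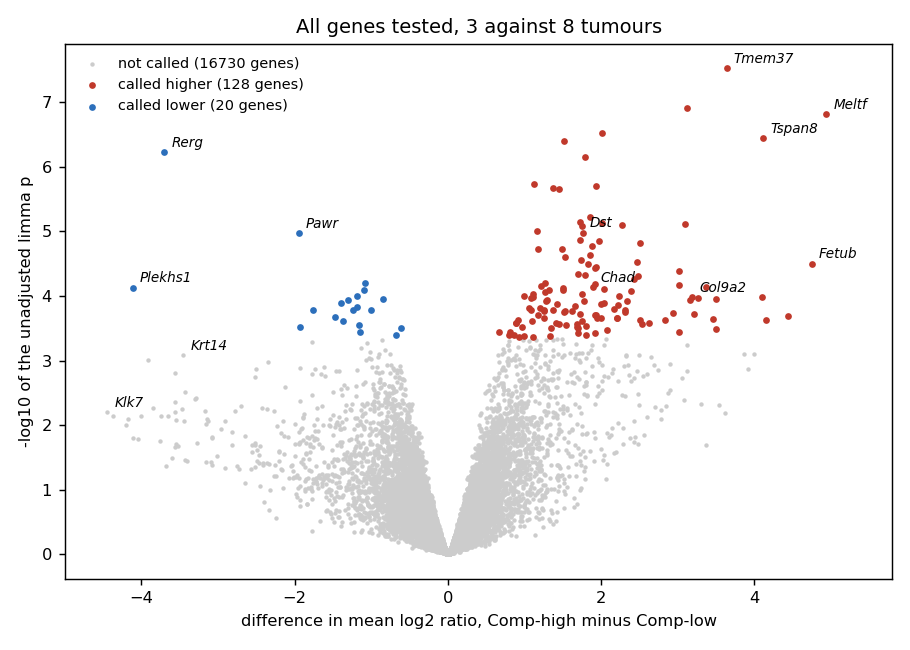
Difference in mean log2 ratio (Comp-high minus Comp-low, x axis) against -log10 of the unadjusted limma p (y axis) for 16878 genes, 1 point a gene. Red points are the 128 genes called higher and blue points the 20 called lower, and Krt14 and Klk7 lie far to the left without passing the test.

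The number of calls moved with single tumours. Without T172 16 genes were called higher and 1 lower, and without T284 33 and 2. Without T646 the counts were 232 and 23, without T176 190 and 80, and without T920 177 and 35. Leaving out 1 of the other low tumours gave 61 and 8 (T2023), 64 and 8 (T55), 66 and 9 (T372), 73 and 8 (T160), 77 and 13 (T135), or 80 and 13 (T2134). All 128 and all 20 genes kept their direction in each of these fits. For 123 of the 128 and for all 20 the sides did not overlap, so leaving out 1 tumour could not have reversed them. Of 35 called genes named below, Meltf, Tmem37, Tspan8 and Rerg kept their call whichever tumour was left out. The call was lost for 30 of the 35 without T172, for 27 without T284, and for 10 to 18 without T135, T160, T2023, T2134, T372, T55 or T646. None of the 35 lost it without T176 or T920.

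The largest difference was that of Meltf, melanotransferrin, a membrane-bound iron-binding protein of the transferrin family. Its log2 ratio was -0.16 in T172, -0.36 in T284 and 1.36 in T646, against a range of -5.69 to -3.28 with a median of -4.75 in the low tumours. The difference was 4.94 ± 0.45 (SE, n = 3 against 8), with a limma adjusted p of 0.000867. The low tumours thus stood far below the reference, while the high tumours stood near or above it. Trf, the serum iron carrier transferrin, was 1.20, 1.46 and 1.40 in the high tumours and between -3.72 and 0.11 in the low tumours. Its difference was 3.46 ± 0.66 (SE), adjusted p = 0.0349 in limma, and the low tumour nearest to the high side was T2134. The Trf call was lost in 8 of the 11 fits that left out a tumour, with an adjusted p of up to 0.175.

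Tmem37, a small transmembrane protein, had the smallest p of all genes. Its ratios were 0.91, 1.18 and 0.27 in T172, T284 and T646, and lay between -3.46 and -2.15 in the low tumours, with a median of -2.84. The difference of 3.64 ± 0.29 (SE) had a limma adjusted p of 0.000504. Tspan8, a tetraspanin of epithelial cell surfaces, was 2.52, 2.08 and 2.16 in the high tumours and between -2.92 and -0.88 in the low ones. It differed by 4.11 ± 0.41 (SE), adjusted p = 0.00113 in limma. For both genes no low tumour came within 2 log2 units of the lowest high tumour.

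Fetub, fetuin-B, a protease inhibitor of blood plasma, was 3.01 in T172 and 2.65 in T284 but -0.47 in T646. In the low tumours it ranged from -3.84 to -1.05, and it differed by 4.74 ± 0.73 (SE), adjusted p = 0.0163 in limma. T646 was therefore the low member of the high side for this gene. Without T172 its adjusted p was 0.119 and without T284 0.107. Scgb2b27, a secretoglobin, was 4.46, 4.38 and 2.80 against -1.80 to 1.91, a difference of 4.10. Cpe, carboxypeptidase E, which trims prohormones, was 2.79, 2.47 and 1.23 against -2.46 to 0.43, a difference of 3.49. Rbp7, a cellular retinol-binding protein, rose by 3.50 but its sides overlapped, since T920 at 0.74 stood above T646 at 0.11. Gna14, a G protein alpha subunit, rose by 3.26, and Flvcr2, a membrane transporter of the heme exporter family, by 3.37. Without T172, limma's adjusted p was 0.171 for Scgb2b27, 0.175 for Cpe, 0.232 for Rbp7, 0.175 for Gna14 and 0.143 for Flvcr2.

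Hs3st1 and Hs3st3b1 encode enzymes that add a sulfate to the third hydroxyl position of glucosamine in heparan sulfate, a sugar chain of cell surface and matrix proteoglycans. Hs3st1 was 3.44, 3.22 and 3.87 in the high tumours, and between -3.19 and 1.79 in the low tumours. Its difference was 4.43 ± 0.84 (SE), adjusted p = 0.0341 in limma. Hs3st3b1 was 3.36, 2.37 and 1.71 in the high tumours and between -1.90 and 1.41 in the low tumours, a difference of 3.21 ± 0.60 (SE), adjusted p = 0.0328. In both genes T920 was the low tumour nearest to the high side. Their calls were lost in 9 and 8 of the 11 fits that left out a tumour, with adjusted p-values of up to 0.175 and 0.209.

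**Figure D2:**
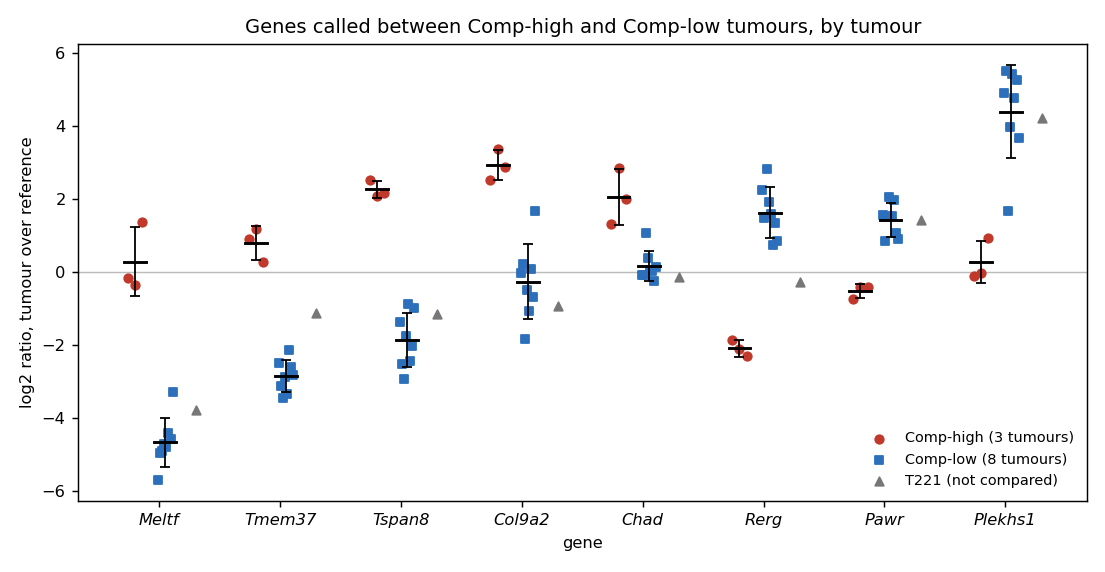
Log2 ratio of tumour over reference (y axis) for 8 called genes (x axis). Red circles are the 3 Comp-high tumours, blue squares the 8 Comp-low tumours and grey triangles T221, with the mean and SD of each side in black; in each of the 8 genes no circle lies within the range of the squares.

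Of the cartilage list 2 genes were called higher, where 0.758% of all genes were. The list held 23 matrix genes and known partners of COMP, Comp itself not counted, of which 22 were measured. Col9a2, a chain of the type IX collagen that decorates cartilage fibrils, was 2.53 in T172, 3.35 in T284 and 2.87 in T646. It ranged from -1.83 to 1.65 in the low tumours, with a median of -0.26, and T920 was the highest of them. The difference was 3.18 ± 0.56 (SE), adjusted p = 0.0278 in limma. Chad, chondroadherin, a leucine-rich cartilage protein that binds cells, was 1.32, 2.83 and 1.99 against -0.24 to 1.06, with T176 the highest low tumour. It differed by 1.89 ± 0.32 (SE), adjusted p = 0.0254. Without T284 limma's adjusted p was 0.123 for Chad and 0.144 for Col9a2, and Col9a2 also missed the threshold without T172 (0.123), T2023 (0.0533) and T55 (0.0531).

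The other 20 measured genes of that list did not pass the test. Col9a1, which pairs with Col9a2 in type IX collagen, was 2.56, 2.97 and 1.67 in the high tumours and reached 2.09 in the low ones, a difference of 2.07 with a limma adjusted p of 0.369. The third chain, Col9a3, differed by 0.53 (adjusted p = 0.868). Col11a1 differed by 2.43 (adjusted p = 0.269) and passed the test without T176 (adjusted p = 0.0275). The defining genes of chondrocytes did not stand apart. Col2a1, the main cartilage collagen, was -4.12, -4.11 and -1.98 in the high tumours, below the reference in all 3, and differed by 0.12 ± 0.61 (SE). Acan, the main cartilage proteoglycan, was -2.48, -3.12 and -1.50 and differed by 0.12 ± 0.56 (SE). Sox9, the transcription factor of early chondrocytes, was -0.99, -0.81 and -0.67 and differed by -0.54 ± 0.34 (SE). The median difference over the 22 genes was 0.12, against -0.02 for all genes, and turned to -0.02 without T646.

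Of 12 measured regulators of cartilage formation, 1 was called, where 0.877% of all genes were. Foxc2, a forkhead transcription factor of mesenchyme and lymphatic vessels, was 0.64, 0.75 and 0.96 in the high tumours, and in the low tumours lay between -1.68 and -1.31 except for T920 at 0.36. It rose by 2.003 ± 0.36 (SE), adjusted p = 0.0291 in limma, and its call was lost in 9 of the 11 fits that left out a tumour, with an adjusted p of up to 0.143. Sox5, which acts with Sox6 and Sox9 in cartilage, was 1.94, 1.30 and 1.36 and lay above all low tumours, whose highest was 0.48, but its difference of 2.59 had an adjusted p of 0.0923. Of the thrombospondins, the family of COMP, Thbs2, Thbs3 and Thbs4 were measured and none passed the test. Thbs4, a close relative of Comp, was -1.50, -1.70 and -1.97 against -3.40 to -1.08 and differed by 0.99 (adjusted p = 0.367). None of the 9 tendon and ligament genes and none of the 21 fibrillar collagens and stromal matrix genes passed the test, with median differences of -0.20 and -0.05. Leaving out T176 brought the 2 medians to -0.03 and 0.06, and quantile normalization to -0.03 and 0.16. Ank, a membrane protein that supplies pyrophosphate and restrains mineral deposition in joints, was among the largest differences. It was 4.18, 2.43 and 4.71 against -2.48 to 1.26, a difference of 4.14 ± 0.80 (SE), adjusted p = 0.0349, which became 0.199 without T172.

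Rerg, a small GTPase of the Ras superfamily described as an oestrogen-regulated growth inhibitor, was the most stable of the genes called lower. It was -1.85, -2.10 and -2.31 in the high tumours and between 0.74 and 2.82 in the low tumours, a difference of -3.70 ± 0.38 (SE) with a limma adjusted p of 0.00143. All high tumours stood below the reference and all low tumours above it. Plekhs1, a pleckstrin homology domain protein, was -0.10, -0.02 and 0.94 in the high tumours and between 1.67 and 5.48 in the low tumours, with T176 the lowest of them. It differed by -4.11 ± 0.69 (SE), adjusted p = 0.0254, which became 0.146 without T172 and 0.127 without T284. Pawr, also known as Par-4, a promoter of apoptosis, was -0.74, -0.41 and -0.42 against 0.84 to 2.04, a difference of -1.94 ± 0.27 (SE), adjusted p = 0.00854, which became 0.0872 without T172.

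The remaining 11 named genes called lower differed by -1.93 to -1.09. They were Bdh1, a mitochondrial enzyme of ketone bodies (-1.93), Rhbg, an ammonium transporter (-1.75), Trim59 (-1.47), Txnrd3, a thioredoxin reductase (-1.39), and Nebl, an actin-binding protein (-1.38). The others were Ipo5, a nuclear import receptor (-1.24), Tdg, a DNA repair glycosylase (-1.18), Net1 (-1.18), Sgf29 of the SAGA complex (-1.16), Rrs1 of ribosome assembly (-1.15) and Rps26 of the small ribosomal subunit (-1.09). In each of them the 3 high tumours lay below all 8 low tumours. The 2 probes of Nebl gave -1.90 and -0.86. Without T172 limma's adjusted p of these 11 genes lay between 0.139 for Rps26 and Txnrd3 and 0.241 for Sgf29.

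**Figure D3:**
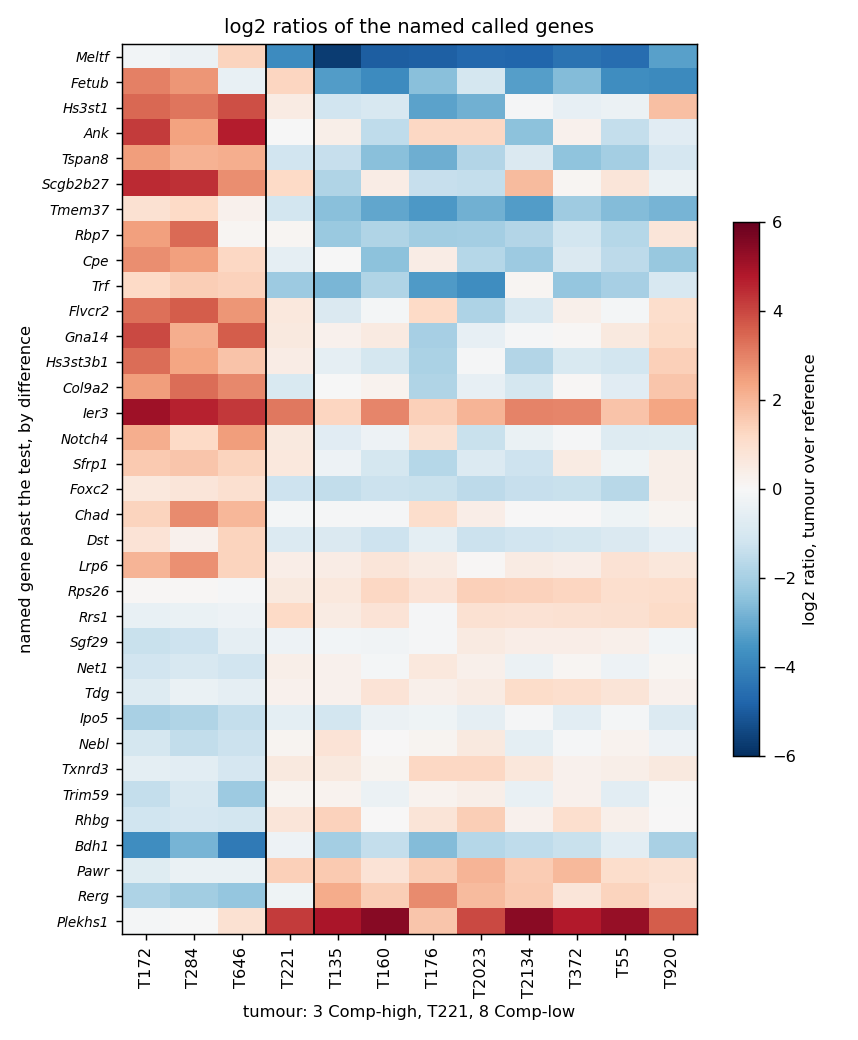
Log2 ratio of tumour over reference (colour) for the 35 named genes past the test (rows, ordered by difference) in 12 tumours (columns). Black lines set off the 3 Comp-high tumours on the left and T221; T221 resembles the low columns in most rows, with Fetub and Sfrp1 among the exceptions.

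T221, which was in neither side, mostly lay nearer to the low tumours in the called genes. These genes were called from the other 11 tumours, and the low range spans 8 tumours against 3, which favours the low side in such counts. The likeness of T221 to either side was not tested. Among the 128 genes called higher it lay nearer to the mean of the low side in 116 and nearer to the high side in 12. It fell within the range of the low tumours in 95, within that of the high tumours in 4, and in neither in 29. Among the 20 genes called lower it was nearer to the low mean in 17. Fetub in T221 was 1.31, within the range of the high side, and Rerg was -0.27, between the sides and nearer to the high mean.

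Across 40 gene lists, 592 distinct genes were measured and 8 were called, all higher. This is 1.35%, near the 0.877% of all genes. Besides Col9a2, Chad and Foxc2 the called genes were Dst, Sfrp1, Lrp6, Notch4 and Ier3, and the members of 33 lists held no call. Sfrp1, a secreted Wnt antagonist, was 1.57, 1.67 and 1.33 against -1.69 to 0.49, a difference of 2.08 ± 0.42 (SE), limma adjusted p = 0.0419. Lrp6, a Wnt co-receptor, was 2.03, 2.73 and 1.35 against 0.08 to 0.88, a difference of 1.51 ± 0.25 (SE), adjusted p = 0.0254. The other 25 measured Wnt genes did not pass the test. Their list had a median of -0.34, with 21 of 27 differences below 0, where 8945 of all 16878 genes were below 0. Wif1, a secreted Wnt inhibitor, differed by -3.85 (adjusted p = 0.164).

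Notch4, a Notch receptor best known from endothelium and as a mammary integration site, was 2.20, 1.18 and 2.53 against -1.35 to 0.89, a difference of 2.39 ± 0.41 (SE), limma adjusted p = 0.0259. It was the 1 called gene of 17 measured in the Notch list, where 0.877% of all genes were called. Hey1, a Notch target, was 3.20, 4.13 and 0.74 with T920 at 2.91 on the low side, and its difference of 3.54 had an adjusted p of 0.155, which became 0.0240 without T920. Ier3, an immediate early gene, was 5.08, 4.63 and 4.22 against 1.29 to 2.96, a difference of 2.43 ± 0.40 (SE), adjusted p = 0.0230. Fos, Fosb, Egr1, Jun and the other 10 measured immediate early and heat shock genes did not pass the test, and the median of that list was 0.02. Without T172 the adjusted p was 0.207 for Sfrp1, 0.139 for Lrp6, 0.152 for Notch4 and 0.143 for Ier3.

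Basal and squamous epithelial genes had lower values in the Comp-high tumours. No squamous gene passed the test in the fit that gave the 148 calls. Of 18 measured squamous genes all had a difference below 0, with a median of -2.003, 11 at an unadjusted p under 0.05 and none called. Of all 16878 genes, 8945 had a difference below 0, and 933 were lower at that unadjusted p. Klk7, a skin protease, was -5.26, -4.81 and -3.02 in the high tumours and from -3.97 in T920 to 3.49 in T372, a difference of -4.44 ± 1.34 (SE), limma adjusted p = 0.176. Sprr2d differed by -4.11 (adjusted p = 0.253). The low tumours varied widely in these genes, and T920 was at -3.97 for Klk7, within the range of the high side, and at -3.32 for Sprr2d, as low as the lowest high tumour. Of 16 basal genes 13 had a difference below 0, with a median of -1.76. Krt14, a keratin of basal cells, was -2.61, -2.35 and -2.04 against -1.44 to 2.93, a difference of -3.45 ± 0.78 (SE), adjusted p = 0.0688. Krt14 passed the test without T920 (adjusted p = 0.0167), with the 13 arrays blocked by tumour (adjusted p = 0.0137) and with array weights (adjusted p = 0.00628). Krt16, a keratin of the squamous list named here after its values were seen, differed by -3.47 (adjusted p = 0.165). It passed the test without T920 (adjusted p = 0.0105), with the block (adjusted p = 0.0472) and with array weights (adjusted p = 0.00877). More genes were called at large in these settings, 299 higher and 77 lower with the block and 833 and 534 with array weights. T920 had the lowest of the array weights, 0.402. The partner keratin of Krt14, Krt5, had a difference of -2.90 (limma adjusted p = 0.200). For Trp63, a basal cell transcription factor, the difference was -3.56 (adjusted p = 0.174). Leaving out T176 brought Trp63 past the test (adjusted p = 0.0410).

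Dst, dystonin, a linker of hemidesmosomes and cytoskeleton, was the only called gene among the 16 of the basal list. Of all genes 0.877% were called. Dst rose, whereas 13 of the list had a difference below 0. It was 0.83, 0.28 and 1.33 against -1.30 to -0.48, a difference of 1.76 ± 0.24 (SE), limma adjusted p = 0.00854. Its 2 probes gave 1.81 and 1.71, and without T172 its adjusted p was 0.0676. The luminal keratins Krt8 and Krt18 and the epithelial marker Epcam were between 2.21 and 3.18 in the 3 high tumours. T176 alone of the low tumours had them far below the reference, at -3.53, -4.25 and -4.09, and none of the 15 luminal genes passed the test. Krt19, another luminal keratin, was instead below the reference in the high tumours, at -3.43, -3.66 and -1.14, against -4.12 to 2.72. Its difference was -2.32 (limma adjusted p = 0.526). Of the 15 luminal genes, 10 had a difference above 0 and 5 below 0.

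**Figure D4:**
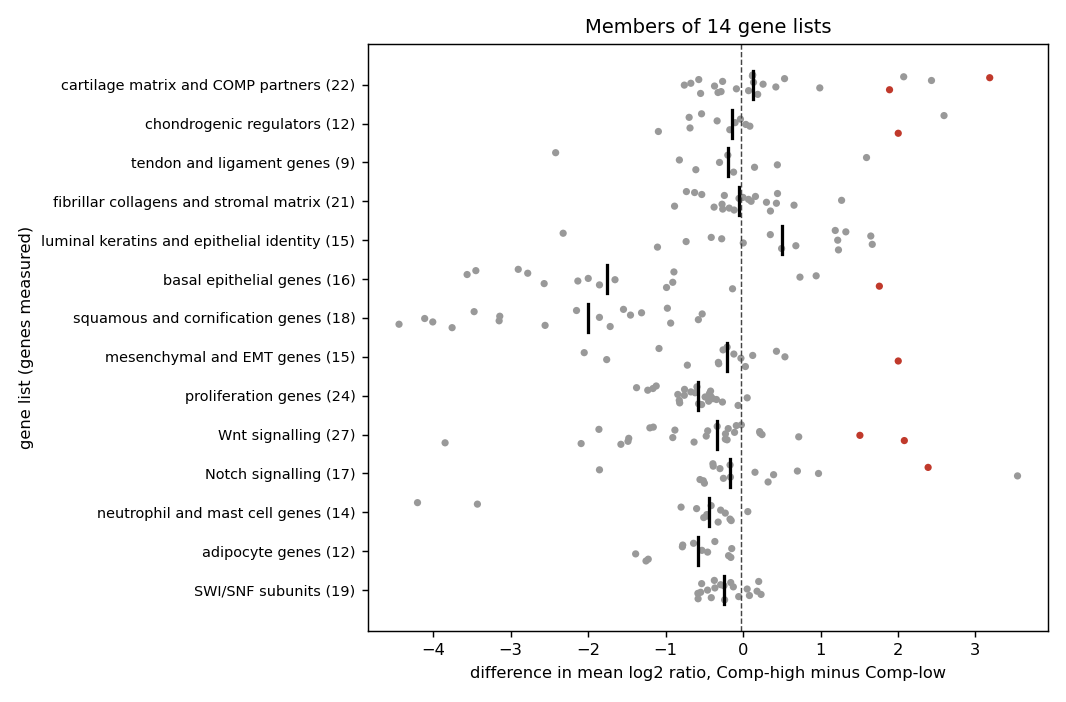
Difference in mean log2 ratio (Comp-high minus Comp-low, x axis) of the measured members of 14 gene lists (rows, with the number measured), 1 point a gene. Red points are called higher, black bars are list medians and the dashed line is the median of all genes, -0.02; the squamous list lies wholly below 0 with no called gene.

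Markers of other cell types were given by their whole lists. The mean of 12 adipocyte genes lay between -3.45 and -3.41 in the high tumours and between -3.34 and -2.12 in the low tumours. These ranges did not overlap but came close, at -3.41 in T172 and -3.34 in T135. All 12 differences were below 0, where 8945 of all 16878 genes were, and none was called. No single adipocyte gene had all high tumours below all low tumours. For neutrophil and mast cell genes the means were -2.85 to -1.74 against -2.56 to -0.70, with 13 of 14 differences below 0 and none called, and S100a8 differed by -4.20 (limma adjusted p = 0.210). The means of the macrophage list were 0.13 to 2.11 against -0.15 to 1.61, with T646 the highest of all compared tumours. Those of the lymphocyte list were -0.21 to 1.17 against -0.55 to 0.80, those of the endothelial list -1.06 to -0.28 against -1.43 to -0.50, and those of skeletal muscle -3.70 to -3.38 against -3.95 to -1.78. None of their genes was called. The part of these cell types in the called genes was not tested.

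Proliferation genes had differences below 0 in 23 of 24 cases, where 8945 of all 16878 genes did. Their median was -0.59, against -0.02 for all genes, and none was called. The list mean was -1.78 in T646 against -0.14 and 0.04 in the other high tumours and -0.66 to 0.39 in the low tumours, and without T646 the median was -0.06. Smarca4, heterozygous in all these mice, was -0.92, -1.08 and -0.48 in the high tumours and between -0.87 and 0.08 in the low tumours, a difference of -0.37 ± 0.21 (SE), limma adjusted p = 0.535. Smarca2, its paralog, differed by 0.20 ± 0.29 (SE). No SWI/SNF subunit was called. The mean of the 19 subunits was -0.51 to -0.45 in the high tumours and -0.41 to -0.10 in the low tumours, a median difference of -0.25.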

How the data were processed

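RNA of 12 mammary tumours was measured on 14 two-colour arrays. The deposited log2 values were read as tumour (Cy5) over common reference (Cy3), per the labels; base 2 was inferred from their range of -9.19 to 7.42. Of the scanner, background correction and normalization, details were not given in the sources used here. Array medians lay between 0 and 0.018, and each array gave 22501 to 22566 of 22575 probes. Array number and not a read depth limits the precision.

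Probes were named from the platform annotation, updated through RefSeq GRCm38.p6: 18658 had 1 symbol, 30 several and 3887 none. Of the named probes 18445 matched by Entrez identifier, 24 by accession, and 189 kept the old symbol. Probes of 1 gene were averaged, giving 16879 genes, 16878 without Comp. Genes needed values in 2 high and 6 low tumours. Arrays of T172 and of T284 were averaged first.

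The fit was limma 3.58.1 (R 4.3.3), lmFit and eBayes, 3 against 8 tumours, with Benjamini-Hochberg adjustment over all genes and calls under 0.05. It was tested on simulated data. Lists have no test of their own. Tables were made with Python 3.11.15 and pandas 2.3.3.

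The tumours, the 40 gene lists and the rule for naming genes were chosen with earlier results of these data known. The rule takes the 14 largest called differences in each direction with values in all 11 tumours, up to 4 called members of each list or else its 2 largest differences, and Smarca4 and Smarca2; clones and gene models are not named. Alternatives were other uses of the second arrays, quantile normalization, 1 probe per gene, complete genes, a robust prior, array weights, T221 on the high side, Comp as a covariate, and leaving out each tumour.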

Additional observations from a re-analysis of the deposited data

Results flagged for a closer look

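Within the 8 Comp-low tumours, 1 tumour stood apart from the other 7 in 13 of 102 named genes, by Dixon's 95% limit. Chance passes that limit in about 1 of 20 groups. The genes were named by the size of their differences in these same tumours, which 1 extreme tumour can enlarge. The share of 13 in 102 therefore cannot be set against that rate. T176 was the tumour in 9 of them. It was high for Omd (4.60, others -4.07 to -1.44), Fmod (4.13, others -3.14 to -1.54), Phex (2.94, others -3.66 to -2.28), Mmp9 (4.36, others -3.41 to -0.20), Wnt4 (0.35, others -1.72 to -0.77) and Chad (1.06, others -0.24 to 0.38). It was low for Ltf (-2.90, others 1.27 to 4.84), Tjp3 (-2.79, others 1.79 to 3.05) and Actl6a (0.12, others 0.51 to 0.77). T920 was high for Rbp7 (0.74, others -2.24 to -1.12) and Foxc2 (0.36, others -1.68 to -1.31). T2023 was high for Fetub (-1.05, others -3.84 to -2.52) and T372 for Thbs3 (-1.87, others -3.84 to -2.93). Chad, Rbp7, Foxc2 and Fetub are genes called higher in the Comp-high tumours, so in each of them the tumour that stood apart narrowed the gap between the sides.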

How the results depend on the processing

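The counts of calls moved with the processing. All of the 128 and 20 called genes kept their direction in every setting that tested them. For genes whose sides did not overlap, this was fixed in advance when 1 tumour was left out. With all 13 arrays and the tumour as a random block, 299 genes were called higher and 77 lower. Array weights gave 833 and 534, Comp as a covariate over 12 tumours gave 70 and 11, and T221 added to the high side gave 2 and 1. Quantile normalization gave 95 and 13. Leaving out 1 tumour gave 16 to 232 higher and 1 to 80 lower. The first or second array alone, 1 probe per gene, complete genes and the robust prior gave 122 to 139 higher and 18 to 29 lower. The cause of these shifts was not tested. Of the named genes, 2 that did not pass the test changed sign. Thbs3, at -0.20, was 0.127 with T221 added, 0.053 after quantile normalization and -0.644 to 0.065 with 1 tumour left out. H2-Ab1, at 0.62, was -0.171 to 1.20 with 1 tumour left out, the lowest without T646. Of the 67 named genes that did not pass the test, 17 passed it with array weights, 5 with the block, 4 without T176, 2 without T646 and 1 without T920. Rerg and Tmem37 kept their call in all 21 settings, and Meltf and Tspan8 lost it only with T221 on the high side. No paired analysis was possible because the replicate numbers count the arrays of 1 tumour and pair no tumours across the sides. The 3 tumours of the high side limit the precision.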

Other observations

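Some gene families were looked at after their values were seen. Besides Hs3st1 and Hs3st3b1, Hs3st3a1 rose, at 2.97, 3.19 and 1.16 in the high tumours against -0.60 to 0.75, a difference of 2.48 ± 0.40 (SE) with a limma adjusted p of 0.0211. The other 2 measured members of that family, Hs3st2 (-0.20) and Hs3st6 (0.43), did not pass the test. The called share was 60.0% of 5 measured members, against 0.877% of all genes. The Tle family includes co-repressors that Wnt and Notch target genes use for silencing. Of 6 measured members, Tle1 rose by 1.78 (adjusted p = 0.0211) and Tle2 by 1.69 (adjusted p = 0.0374). Tle6 (1.68), Tle5 (0.66), Tle4 (0.65) and Tle3 (-0.45) did not pass it, although Tle5 did without T920 (adjusted p = 0.0438). The called share was 33.3% of the 6, against the same 0.877%. Since both families were picked for their values, these shares are no test of a family.

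Of 68 measured ribosomal protein genes, 59 had a difference below 0, where 8945 of all 16878 genes did, with a median of -0.34 against -0.02 for all genes. Of these, 2 were called lower, Rps26 and Rpl22l1, which is 2.94% against 0.118% of all genes, and the other 66 did not pass the test. After quantile normalization 57 of 68 lay below 0, with a median of -0.29. Many of these genes have near-identical copies in the genome, which the probes may not tell apart. Of 325 solute carrier genes 150 had a difference above 0 and 175 below, with a median of -0.05. At an unadjusted p under 0.05, 39 were higher and 24 lower, and 7 (2.15%, against 0.877% of all genes) were called, all higher, among them Slc29a1, a nucleoside transporter, at 3.39, 2.55 and 3.38 in the high tumours.

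By the positions in assembly GRCm38.p6, the share of genes called ran from 0.174% on chromosome X to 1.31% on chromosome 8 among the autosomes and X.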
